A study of Mus musculus with 92 samples.

Results

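Myeloid C-type lectin receptors are cell-surface proteins with which macrophages, monocytes and neutrophils sense glycans, glycolipids and the contents of dead cells. The members were taken by name: Clec4d, Clec4e, Clec4n, Clec7a, Clec12a, Clec4a1, Clec4a2 and Clec4a3, 8 of the 29956 named genes in the deposited table. All 8 passed the filter on low values in every fit in which they were tested. RNA of 92 mouse libraries in 25 groups had been sequenced, and the deposited values are Log2 CPM, the log2 of counts scaled to the size of the library (CPM).

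As background, MCL (Clec4d), Mincle (Clec4e) and dectin-2 (Clec4n) are activating receptors that pair with the Fc receptor gamma chain (Fcer1g) and signal through the kinase Syk. Dectin-1 (Clec7a) activates Syk through a motif in its own tail, and in the brain its transcript is a common marker of activated microglia. Clec12a and DCIR (Clec4a2) carry an inhibitory motif that recruits phosphatases such as Ptpn6, and Clec4a1 and Clec4a3 belong to the same DCIR family.

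The cells came from 3 sources. BM progenitors, BM monocytes and BMD macrophages (3 libraries each) came from bone marrow of FVB WT mice. ER-Hoxb8 cells are myeloid progenitors held undifferentiated by an estrogen-dependent Hoxb8. Those grown in culture came from an FVB Cas9 mouse (genotype Cas9 het), those of the MLCs are labelled WT, and they were kept in GM-CSF with beta-estradiol. ER-Hoxb8 progenitors, ER-Hoxb8 cells after 4 days of differentiation and ER-Hoxb8 macrophages had 3 libraries each. All macrophages were grown for 7 days in M-CSF. Microglia-like cells (MLCs) were cells taken back out of the brain of Csf1r KO mice after injection of bone marrow (BMD MLCs, 6 libraries) or of ER-Hoxb8 cells (ER-Hoxb8 MLCs, 6 libraries). Of the latter, 3 libraries carry the series name GFPHox and 3 the name WTHox. The microglia (9 libraries) came from FVB WT mice that had received no injection, and 2 of them, replicates 8 and 9, carry the series name YSWT. In Cas9 het ER-Hoxb8 cells, a non-targeting guide (NTC) or a guide against Adar made the control and Adar1 KO cells. The labels do not say how many transduced lines stand behind the libraries of a guide. An effect of the knockout and a difference between lines therefore cannot be told apart. NTC progenitors, NTC macrophages, sgRNA 1 progenitors, sgRNA 1 macrophages and sgRNA 2 progenitors had 3 libraries each, and sgRNA 2 macrophages had 5. In a separate series, NTC and Adar1 KO (sgRNA 1) macrophages were grown with 0, 0.0006, 0.016, 0.4 or 10 uM of the JAK inhibitor baricitinib, as their titles state, with 3 or 4 libraries per dose, 33 in all. The protocol text gives other values for the lowest 2 doses above 0, and the doses of the titles are used here. Cells from brain were sorted by FACS into TRIzol LS, and all libraries were made with a low-input kit. By the authors' methods the hosts were injected as pups, and the microglia came from mice of matched age.

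Depth, as estimated from the deposited values, was 44.7 to 52.5 M counts (M, mega) in BM progenitors, 46.5 to 48.0 in BM monocytes and 21.8 to 35.8 in BMD macrophages. It was 33.3 to 48.3 M in ER-Hoxb8 progenitors, 33.2 to 38.6 on day 4 and 28.2 to 34.7 in ER-Hoxb8 macrophages. The BMD MLCs had 24.6 to 29.6 M, the ER-Hoxb8 MLCs 9.49 to 26.0 and the microglia at most 30.6. The first knockout series and sgRNA 2 had 17.2 to 34.2 M, and the baricitinib series 6.16 to 32.7. The libraries fall into 6 sets that were normalized apart, and each comparison stays within 1 set. The 6 sets were: the bone marrow cells and progenitors, the macrophages with the brain cells, sgRNA 1 with NTC, a single NTC macrophage library, sgRNA 2, and the baricitinib series. A gene was called when limma gave an adjusted p below 0.05 over all genes tested and a log2 fold change of at least 2 in either direction. Errors are SD for levels and SE for fold changes.

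All 8 genes lie on mouse chromosome 6. Clec4n, Clec4d and Clec4e stand side by side, and Clec4a1, Clec4a3 and Clec4a2 lie before them in the same stretch, among Clec4a4, Clec4b1 and Clec4b2. Clec12a and Clec7a lie further along, Clec12a beside Clec12b and Clec7a between Clec1a and Olr1. RefSeq promoters (GRCm38.p6, 250 bases before to 50 after the start) were found for 7 of the 8 members, in 9 entries. Clec4n has no entry. The authors mapped reads to GRCm39, so these coordinates belong to an older build. Both strands were searched for GAGGAA (the PU.1 core), TTNNGNAA (C/EBP), TGANTCA (AP-1), GAAA repeated after 2 free bases (IRF) and CACGTG (the E-box of MITF and TFE). Clec7a and Clec4a3 have 2 entries each, which overlap, so matches are counted by gene. The PU.1 core is in 6 of 7 genes and in 28.3% of all 32851 promoters, and the C/EBP letters are in 4 of 7 and in 40.7% of all. AP-1 letters are in 2 of 7 (7.81% of all), IRF letters in 1 of 7 (3.44% of all) and the E-box in 0 of 7 (7.15% of all). A match is a run of letters and does not show that a factor binds. The promoters of Clec4d (chr6:123261857-123262156, plus strand), Clec4e (chr6:123289822-123290121, minus strand), Clec12a (chr6:129349994-129350293, plus strand) and Clec7a (chr6:129472730-129473029, minus strand) are shown since these genes carry the contrasts below, with matches in capitals, some of which overlap.
Clec4d: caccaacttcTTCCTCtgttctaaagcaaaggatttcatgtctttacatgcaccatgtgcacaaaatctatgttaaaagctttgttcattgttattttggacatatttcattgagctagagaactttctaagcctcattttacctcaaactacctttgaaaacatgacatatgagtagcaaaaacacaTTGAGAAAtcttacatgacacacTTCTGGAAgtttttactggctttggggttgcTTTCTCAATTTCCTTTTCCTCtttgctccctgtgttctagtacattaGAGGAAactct
Clec4e: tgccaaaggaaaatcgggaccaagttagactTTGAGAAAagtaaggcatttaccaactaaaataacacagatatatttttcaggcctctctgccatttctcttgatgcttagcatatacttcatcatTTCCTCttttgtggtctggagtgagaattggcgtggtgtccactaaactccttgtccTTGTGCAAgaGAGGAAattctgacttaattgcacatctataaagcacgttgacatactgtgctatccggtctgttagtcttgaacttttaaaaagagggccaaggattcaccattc
Clec12a: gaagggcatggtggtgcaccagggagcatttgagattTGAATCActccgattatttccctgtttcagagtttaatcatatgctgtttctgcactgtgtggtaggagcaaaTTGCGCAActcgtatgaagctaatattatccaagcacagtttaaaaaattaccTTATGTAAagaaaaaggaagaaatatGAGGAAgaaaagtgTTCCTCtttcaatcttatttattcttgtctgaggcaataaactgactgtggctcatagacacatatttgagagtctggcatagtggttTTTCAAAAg
Clec7a: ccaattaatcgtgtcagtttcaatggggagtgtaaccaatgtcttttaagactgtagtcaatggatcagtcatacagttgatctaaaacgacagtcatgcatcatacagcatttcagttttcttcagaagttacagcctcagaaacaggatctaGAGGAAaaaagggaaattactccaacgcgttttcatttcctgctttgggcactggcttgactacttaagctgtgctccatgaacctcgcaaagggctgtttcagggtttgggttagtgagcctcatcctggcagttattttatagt
In the Clec4d window there are 3 matches to the PU.1 core, 3 to C/EBP and 1 to IRF, and in that of Clec4e 2 and 2. Clec12a has 2 matches to the PU.1 core, 3 to C/EBP and 1 to AP-1, and Clec7a has 1, to the PU.1 core.

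Several libraries stood apart from their group. The library labelled ER-Hoxb8 progenitors replicate 2 was most like ER-Hoxb8 day 4 cells replicate 2 (r = 0.988 over 8008 genes), and its r to the other ER-Hoxb8 progenitors was 0.698 to 0.806. Of 6 progenitor markers it was the lowest of its group in 5 (Kit, Mpo, Elane, Prtn3 and Myb), with Mpo at 2.77 against 4.40 in replicate 1 and 11.20 in replicate 3, and the highest in Cd34, at 4.21 against -1.42 and 0.38. The library labelled microglia replicate 8 held more transcript of other brain cells than the rest of its group, with summed astrocyte markers at 8.40, and its r to its own group was 0.555 to 0.789. The library labelled ER-Hoxb8 MLCs replicate 6 had the highest summed monocyte markers of its group (13.22 against 8.05 to 11.99) and was the highest of its group for all 8 members. The library labelled Adar1 KO macrophages 0.4 uM replicate 2 was most like replicate 2 at 0.016 uM (r = 0.931), and its r to its own group was 0.777 to 0.801. NTC macrophages replicate 2 had been normalized on its own and was left out of the tests. Results whose call rests on any of these are given with and without it.

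Neutrophil and monocyte transcripts also differed among the cells from brain, and these cells too use Clec12a, Clec4d and Clec4e. The summed markers of neutrophils (8 genes, Ngp or S100a8 most abundant, none at the lowest value) were 12.31 to 15.11 in BMD MLCs and 8.90 to 12.73 in microglia. In ER-Hoxb8 MLCs they were 9.78, 8.16, 8.62, 14.43, 15.50 and 12.09. The summed monocyte markers (5 genes, Chil3, Ccr2, F13a1 or Ly6c2 most abundant) were 10.56 to 12.56 in BMD MLCs, 8.05 to 13.22 in ER-Hoxb8 MLCs and 5.07 to 8.92 in microglia. In bulk RNA, fewer cells of a type and less RNA per cell cannot be told apart, and the part of these cell types in the results was not tested.

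ER-Hoxb8 progenitors were compared with BM progenitors, their primary counterpart. The former carry Cas9 and were kept in GM-CSF with beta-estradiol, and the latter were isolated from FVB WT marrow. Immortalization, genotype and culture therefore cannot be told apart here. Clec4d, Clec4e and Clec4n, activating receptors and neighbours on the chromosome, were each far higher in ER-Hoxb8 progenitors. Clec7a, which activates Syk as well, and the DCIR genes gave no call. The inhibitory receptor Clec12a was lower in 2 of the 3 libraries. In all, 3 of 8 members were called higher and 0 lower, where 15.3% of all genes tested were called. Markers of other cell types moved with this comparison. The summed macrophage markers were 11.07, 12.21 and 8.84 in ER-Hoxb8 progenitors against 7.10 to 7.81 in BM progenitors, the progenitor markers 7.80, 5.09 and 12.03 against 12.77 to 14.01, and the lymphocyte markers 0.47 to 0.85 against 8.02 to 9.75.

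Clec4d, which brings Mincle to the surface, was 2.30, 1.69 and 1.75 in BM progenitors and 7.78, 7.50 and 4.97 in ER-Hoxb8 progenitors. The groups did not overlap, and the fold change was 4.83 ± 0.59 (95% CI 3.54 to 6.13, adjusted p = 0.000112). Clec4e, the receptor for mycobacterial cord factor, was 2.68, 3.62 and 2.74 against 9.45, 7.32 and 7.50. It too was higher in every ER-Hoxb8 library, by 5.08 ± 0.55 (CI 3.88 to 6.27, adjusted p = 4.57e-05). Clec4n, which binds fungal mannans, was 0.55, 0.90 and 0.84 against 8.55, 9.80 and 4.16. Its fold change was the largest among the members here, 6.74 ± 1.11 (CI 4.31 to 9.17, adjusted p = 0.000959). Clec12a was 6.64, 7.98 and 8.07 in BM progenitors and 2.74, 7.77 and 4.28 in ER-Hoxb8 progenitors. Replicate 2, the library that resembles day 4 cells, alone reached the BM level, and the difference of -2.64 ± 0.94 was not called (adjusted p = 0.0614). Without that library it was -4.06 (adjusted p = 0.000151) and was called. The other 4 members had adjusted p of 0.439 to 0.914. The median log2 fold change was 0.48 over the members and -0.08 over all genes.

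Among partner genes, Fcer1g, the chain through which the activating receptors signal, was higher by 2.87 (adjusted p = 0.00371), the only call among 12 adaptors and kinases, with Tyrobp, at the lowest value in many libraries, left out of these counts. Of 17 other C-type lectin receptors tested, 1 was called higher and 7 lower, the largest falls being Cd209a (-9.06), Cd209d (-6.97), Clec1b (-6.93) and Cd209f (-5.51). Of 8 genes that mark Clec7a-high microglia, 4 rose: Spp1 (6.59), Gpnmb (6.52), Igf1 (6.17) and Cd63 (2.63).

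BM monocytes were compared with BM progenitors, a step of normal differentiation. All 8 members had higher means in monocytes, yet only 2 of 8 were called, where 6.84% of all genes were. Both counts depend on the settings. The 825 genes called fell to between 376 and 630 when 1 library was left out, with 1 called member each time. An offset of 1 gave 4 called members and quantile normalization 5. Clec4e was 5.09, 6.13 and 6.09 in monocytes, above every BM progenitor, a rise of 2.76 ± 0.55 (CI 1.56 to 3.95, adjusted p = 0.00812). Clec4a3 was 2.88, 3.38 and 3.58 in BM progenitors and 7.25, 7.20 and 7.18 in monocytes. That rise of 3.93 ± 1.01 (adjusted p = 0.0262) rested on the full set of libraries, since leaving out any of the 6 gave 3.73 to 4.08 with adjusted p of 0.0671 to 0.105. Clec7a followed the same course without a call, 2.67, 3.24 and 3.32 against 7.12, 7.00 and 6.61 (3.83 ± 1.17, adjusted p = 0.0507). Clec4a1 was 3.11, 3.73 and 3.95 against 7.66, 7.67 and 7.52 (4.02 ± 1.53, adjusted p = 0.104), again with no overlap. The fit pools the spread of 4 groups, among them the widely spread ER-Hoxb8 progenitors. The median log2 fold change of the members was 2.93, against -0.09 over all genes. Fcer1g (2.89), Cd302 (3.72) and Prkcd (2.01) rose as well. Summed monocyte markers were 9.99 to 11.03 in BM progenitors and 13.63 to 13.87 in monocytes. Macrophage markers were 7.10 to 7.81 against 10.35 to 10.64, and lymphocyte markers 8.02 to 9.75 against 6.27 to 7.18.

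ER-Hoxb8 cells on day 4 of differentiation were compared with their progenitors and with BM monocytes. Against the progenitors limma called 0 of 8 members, and 0% of all genes, with 1129 genes at an unadjusted p under 0.05. Clec12a was 7.41, 7.97 and 7.81 on day 4 (2.80 ± 0.94, adjusted p = 0.497). Without ER-Hoxb8 progenitors replicate 2, 733 genes were called and Clec12a was among them, at 4.22 (adjusted p = 0.000447).

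Against BM monocytes, day 4 cells held more Clec4d and Clec4n and less Clec4a3. Of 8 members 2 were higher and 1 lower, where 11.7% of all genes were called. Markers of other cell types moved with this comparison too. The summed monocyte markers were 13.63 to 13.87 in monocytes and 8.92 to 11.46 on day 4. Progenitor markers were 12.38 to 13.07 against 5.25 to 5.60, neutrophil markers 9.99 to 13.35 against 5.53 to 8.43, lymphocyte markers 6.27 to 7.18 against 0.40 to 1.06, and macrophage markers 10.35 to 10.64 against 11.82 to 12.71. Clec4d was 7.03, 7.45 and 7.61 on day 4 and 2.45, 3.02 and 2.53 in monocytes, a rise of 4.70 ± 0.59 (adjusted p = 0.000227). Clec4n was 8.20, 10.04 and 7.87 against 2.32, 2.83 and 2.21, a rise of 6.25 ± 1.11 (adjusted p = 0.00234). In both genes the groups lay far apart. Clec4a3 was 2.90, 5.91 and 2.60 on day 4, below every monocyte library, a change of -3.41 ± 1.01 (adjusted p = 0.0376). That call was lost without any single monocyte library (adjusted p = 0.0952 to 0.0987), without day 4 replicate 1 (-2.96, adjusted p = 0.138) and without day 4 replicate 3 (-2.81, adjusted p = 0.131). Day 4 replicate 2 was the highest of its group for Clec4a1 (5.42) and Clec7a (6.21), which gave -4.47 (adjusted p = 0.0682) and -2.92 (adjusted p = 0.116). Without it Clec4a1 was called at -5.61 (adjusted p = 0.042) and Clec7a at -4.03 (adjusted p = 0.0387). The Clec7a-high genes Gpnmb (8.08), Igf1 (7.09), Spp1 (5.50) and Lpl (5.26) were higher on day 4, 5 of 8 in all, and 7 of 17 other lectin receptors were lower.

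Across these 4 groups the order of levels split the members in 2. In such orders, beyond the spread means that the gap between neighbouring means exceeds the larger of their SDs, which is not a test. Clec4d and Clec4n ran from day 4 cells (7.36 ± 0.30 and 8.70 ± 1.17) through ER-Hoxb8 progenitors and monocytes to BM progenitors (1.91 ± 0.34 and 0.76 ± 0.19), and only the 2 ER-Hoxb8 groups lay within their spread. Clec4e had the same order but for ER-Hoxb8 progenitors at the top (8.09 ± 1.18, against 7.41 ± 0.57 on day 4, within the spread). For Clec12a, Clec4a1, Clec4a2, Clec4a3 and Clec7a the monocytes were highest, beyond the spread, at 8.46 ± 0.21, 7.62 ± 0.09, 7.68 ± 0.29, 7.21 ± 0.04 and 6.91 ± 0.27. Below them no neighbours differed beyond their spread, except that Clec12a was lower in ER-Hoxb8 progenitors than in BM progenitors (4.93 ± 2.58 against 7.56 ± 0.80).

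**Figure D1:**
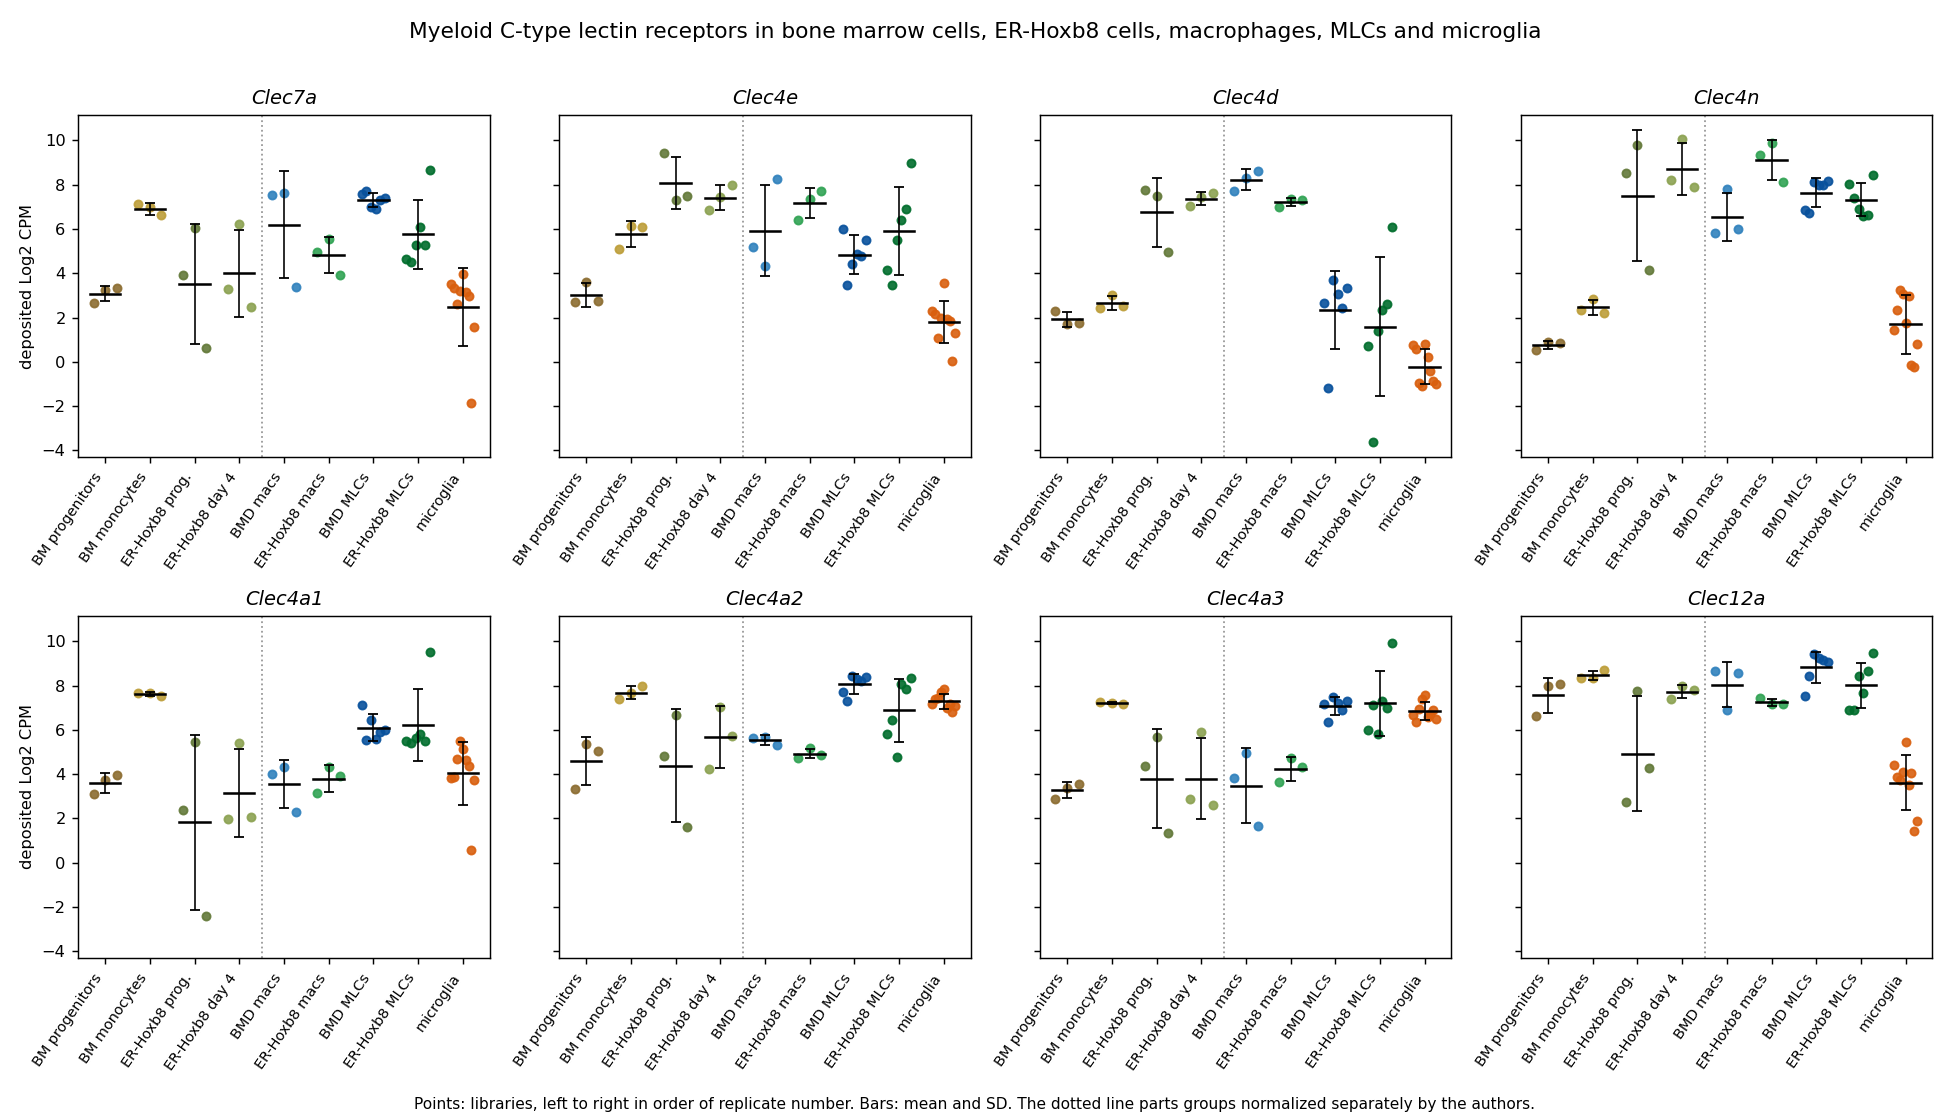
Log2 CPM of the 8 members in every library of bone marrow cells, ER-Hoxb8 cells, MLCs and microglia, with bars for the mean and SD and a dotted line between groups that were normalized apart. Among the macrophages and brain cells, which were normalized together, microglia hold the lowest Clec12a, with 9 libraries from 1.44 to 5.45. Every MLC library lies between 6.90 and 9.48.

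ER-Hoxb8 macrophages and BMD macrophages were compared to see whether the immortalized source gives the same macrophage. The former carry Cas9 and the latter are WT, so source and genotype cannot be told apart. limma called 0 of 8 members, where 1.47% of all genes were called, with 1327 genes at an unadjusted p under 0.05. Clec4n was highest in ER-Hoxb8 macrophages, 9.34, 9.87 and 8.14 against 5.83, 7.79 and 6.02, with no overlap (2.57 ± 0.64, CI 1.07 to 4.08, adjusted p = 0.14). Clec4d was 7.00, 7.34 and 7.28 in ER-Hoxb8 and 7.70, 8.31 and 8.63 in BMD macrophages, again apart (-1.01, adjusted p = 0.201). The other 6 had adjusted p of 0.394 to 0.906. BMD macrophages replicate 3 differed from the other 2 in several members, with Clec7a at 3.39 against 7.55 and 7.63 and Clec4e at 8.23 against 5.18 and 4.33. That library carries the series name wBM, and the other 2 carry the name Mac. Of 9 other lectin receptors tested, Mgl2 (5.21) and Clec10a (3.72), both galactose-type receptors, were called higher in ER-Hoxb8 macrophages. The calls of this comparison are unstable: of all genes, 158 were called, and 5 to 101 when 1 library was left out. With replicate number as a block 0 genes were called. The replicate numbers do not pair these libraries (r of -0.386 to -0.187), so the block does not bear on the 2 calls.

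MLCs were compared with macrophages of the same kind of source, bone marrow or ER-Hoxb8, to see what goes with life in the brain. The ER-Hoxb8 MLCs are labelled WT and the ER-Hoxb8 macrophages Cas9 het, so line and residence in the brain cannot be told apart there. In both sources Clec4d was far lower in the brain, and Clec4a3 and Clec4a1 of the DCIR family were called higher. Clec4a2 was called in BMD cells and not in ER-Hoxb8 cells, and the DCIR calls depended on the libraries used. For BMD cells 3 of 8 members rose and 1 fell, where 15.9% of all genes were called, and for ER-Hoxb8 cells 2 rose and 1 fell, where 19.3% were.

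Clec4d was 7.70, 8.31 and 8.63 in BMD macrophages, and in BMD MLCs its lowest, median and highest values were -1.17, 2.86 and 3.67. No MLC library came near a macrophage library, and the change was -5.88 ± 1.20 (CI -8.35 to -3.42, adjusted p = 0.000645). In ER-Hoxb8 MLCs Clec4d was -3.62, 1.85 and 6.07 (lowest, median, highest) against 7.00 to 7.34 in the macrophages, a change of -5.62 ± 1.20 (CI -8.09 to -3.16, adjusted p = 0.000854). The highest of these was replicate 6 and the lowest, replicate 2, was at the lowest value of its set. The call held without each library in turn, with -6.15 to -5.18 for BMD and -6.52 to -4.58 for ER-Hoxb8 cells. It also held in each series of ER-Hoxb8 MLCs, with -7.71 (adjusted p = 1.17e-05) for GFPHox only and -3.53 (adjusted p = 0.00773) for WTHox only.

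Clec4a3 was 3.84, 4.96 and 1.67 in BMD macrophages and 6.34, 7.18 and 7.49 (lowest, median, highest) in BMD MLCs. It rose by 3.58 ± 0.62 (adjusted p = 0.000134) with no overlap. In ER-Hoxb8 cells it went from 3.64, 4.73 and 4.35 to 5.80, 7.05 and 9.94, a rise of 2.95 ± 0.62 (adjusted p = 0.000783). Clec4a2, the inhibitory DCIR, was 5.65, 5.68 and 5.30 in BMD macrophages and 7.29, 8.24 and 8.44 in BMD MLCs, a rise of 2.51 ± 0.50 (adjusted p = 0.000543). ER-Hoxb8 macrophages had 4.74, 5.17 and 4.88 and their MLCs 4.80, 7.15 and 8.34, which overlap, and the 1.96 ± 0.50 (adjusted p = 0.00409) lay under the fold limit. Without ER-Hoxb8 MLCs replicate 3, the lowest, it was 2.38 (adjusted p = 0.000105). It also passed the limit without ER-Hoxb8 MLCs replicate 1 (2.18) or 2 (2.05), or without ER-Hoxb8 macrophages replicate 2 (2.08). With WTHox only Clec4a2 was called (3.16, adjusted p = 5.04e-08), and with GFPHox only it was not (0.76, adjusted p = 0.113).

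Clec4a1 was 4.02, 4.33 and 2.31 in BMD macrophages and 5.53, 5.94 and 7.13 in BMD MLCs, a rise of 2.54 ± 0.83 (adjusted p = 0.0218). It rested on BMD macrophages replicate 3, without which it was 1.92 (adjusted p = 0.157). In ER-Hoxb8 cells Clec4a1 rose by 2.42 ± 0.83 (adjusted p = 0.0257), with 3.16, 4.32 and 3.93 against 5.42, 5.56 and 9.50. That call was lost without ER-Hoxb8 MLCs replicate 6 (1.76, adjusted p = 0.0516), ER-Hoxb8 macrophages replicate 1 (2.10, adjusted p = 0.115) or replicate 3 (2.48, adjusted p = 0.0607), and with GFPHox only (1.70, adjusted p = 0.125).

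None of the 3 DCIR calls in BMD cells held without the MLC libraries with high neutrophil markers, a setting chosen after seeing the data that leaves 1 BMD MLC library, assumed to vary like the other groups. Clec4a1 was then 1.98 (adjusted p = 0.487), Clec4a2 1.75 (adjusted p = 0.19) and Clec4a3 2.85 (adjusted p = 0.152) (the Clec4d value of this setting, -9.38, rests on BMD MLCs replicate 2 alone, which lies far below its group). In ER-Hoxb8 cells Clec4a3 was still called (2.97, adjusted p = 0.00999) and Clec4a1 was not (2.70, adjusted p = 0.0599).

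Among the remaining activating receptors, only Clec4n had fold changes of opposite sign in the 2 sources. It was 5.83, 7.79 and 6.02 in BMD macrophages and 6.73, 7.98 and 8.15 in BMD MLCs (1.08, adjusted p = 0.236). For ER-Hoxb8 cells Clec4n was 9.34, 9.87 and 8.14 in macrophages and 6.60, 7.13 and 8.41 in MLCs, -1.79 ± 0.68 (adjusted p = 0.0436), under the fold limit. It passed the limit without ER-Hoxb8 MLCs replicate 6 (-2.01, adjusted p = 0.0281) or ER-Hoxb8 macrophages replicate 3 (-2.28, adjusted p = 0.0333). Clec4e (-1.07 in BMD and -1.27 in ER-Hoxb8 cells), Clec7a (1.12 and 0.93) and Clec12a were not called in either source, with adjusted p of 0.281 to 0.486. The series of ER-Hoxb8 MLCs split for Clec4e, which was called lower than in macrophages with GFPHox only (-2.79, adjusted p = 0.0171) and differed by 0.26 with WTHox only (adjusted p = 0.842). The median log2 fold change of the members was 1.10 in BMD and 0.85 in ER-Hoxb8 cells, against -0.01 and -0.15 over all genes.

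When the effect of the brain in ER-Hoxb8 cells was tested against that in BMD cells, limma called 0 of 8 members at an adjusted p below 0.05, where 3.28% of all genes were called, with 1920 at an unadjusted p under 0.05. Clec4e and Clec7a each differed by -0.19 (adjusted p = 0.972 and 0.974). Clec4n came nearest, at -2.88 ± 0.97 (adjusted p = 0.109). It was called with an offset of 1 (-2.86, adjusted p = 0.0427), and in none of 18 fits that each left out 1 library (adjusted p of 0.0537 to 0.286). Clec4n was also called with replicate number as a block (-2.88, adjusted p = 0.0314), though these numbers do not pair the libraries. Without the libraries labelled microglia replicate 8 and ER-Hoxb8 MLCs replicate 6, a setting chosen after seeing the data, it was called at -3.10 (adjusted p = 0.038). With GFPHox only Clec4a2 was called (-1.75, adjusted p = 0.0241), and with WTHox only it was not (0.65, adjusted p = 0.415). Among other lectin receptors the effect differed for Mgl2 (-7.60), Clec10a (-4.74) and Ly75 (-4.20).

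Among genes that mark Clec7a-high microglia, 5 of 8 fell in BMD MLCs, led by Gpnmb (-15.52), Lpl (-6.05), Itgax (-3.45) and Igf1 (-3.35). In ER-Hoxb8 MLCs 4 of 8 fell, Gpnmb (-13.24), Igf1 (-6.73), Lpl (-5.04) and Cd63 (-2.37). Of 15 other lectin receptors, 5 rose in BMD MLCs, led by Cd209a (5.55), Cd209d (5.52), Cd209b (4.32) and Olr1 (4.29). In ER-Hoxb8 MLCs 2 rose and 3 fell, among them Cd69 (5.91), Mgl2 (-4.21), Cd209a (3.95) and Clec10a (-3.52), and Syk fell (-2.06). The neutrophil markers rose in 8 of 8 genes in both sources.

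MLCs were then compared with the brain's own microglia, to ask how near the replacement cells come to them. The lectin receptors separated the 2 clearly: Clec12a, Clec4n, Clec7a and Clec4e were much higher in both kinds of MLC, while Clec4a2 and Clec4a3 were not called in either. For BMD MLCs 6 of 8 members were called higher and 0 lower, where 10.7% of all genes were called, and for ER-Hoxb8 MLCs 5 of 8 higher and 0 lower, where 16.3% were. Both comparisons share the 9 microglia libraries, so their calls are not independent.

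Clec12a, the inhibitory receptor for uric acid crystals, was 1.44, 3.87 and 5.45 (lowest, median, highest) in microglia. In BMD MLCs it was 7.52, 9.13 and 9.43, and in ER-Hoxb8 MLCs 6.90, 8.05 and 9.48. No MLC library overlapped with microglia, and the fold changes were 5.21 ± 0.50 (CI 4.19 to 6.23, adjusted p = 8.62e-09) and 4.40 ± 0.50 (CI 3.38 to 5.42, adjusted p = 7.9e-08). Clec4n was -0.24, 1.75 and 3.24 in microglia, 6.73, 7.98 and 8.15 in BMD MLCs and 6.60, 7.13 and 8.41 in ER-Hoxb8 MLCs. Here too a wide gap lay between the groups, of 5.94 ± 0.51 (CI 4.89 to 6.99, adjusted p = 1.14e-09) and 5.64 ± 0.51 (adjusted p = 1.47e-09). Both genes were called without each library in turn, as were Clec7a and Clec4e, described next.

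Clec7a was -1.85, 3.14 and 3.96 in microglia, 6.91, 7.34 and 7.72 in BMD MLCs and 4.51, 5.28 and 8.67 in ER-Hoxb8 MLCs. It was higher in every MLC library than in any microglia library, by 4.82 ± 0.74 (CI 3.29 to 6.35, adjusted p = 2.09e-05) and 3.25 ± 0.74 (adjusted p = 0.00112). The lowest microglia value was replicate 8 and the highest ER-Hoxb8 value replicate 6. Without both libraries, a setting chosen after seeing the data, the fold changes were 4.28 and 2.13 (adjusted p = 0.00196 for the latter), and both were called. Clec4e was 0.05, 1.94 and 3.55 in microglia, 3.47, 4.83 and 5.98 in BMD MLCs and 3.46, 5.96 and 8.97 in ER-Hoxb8 MLCs. Only microglia replicate 5, at 3.55, overlapped with the lowest library of each kind of MLC, and the fold changes were 3.05 ± 0.67 (adjusted p = 0.00137) and 4.11 ± 0.67 (adjusted p = 2.38e-05).

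Clec4a1 was 0.59, 4.38 and 5.48 in microglia, 5.53 to 7.13 in BMD MLCs and 5.42 to 9.50 in ER-Hoxb8 MLCs, so that only ER-Hoxb8 MLCs overlapped with microglia, at their lower end. The rises of 2.05 ± 0.62 (adjusted p = 0.0172) and 2.18 ± 0.62 (adjusted p = 0.00714) fell under the fold limit without microglia replicate 8, to 1.62 (adjusted p = 0.0199) and 1.75 (adjusted p = 0.00717). Without both that library and ER-Hoxb8 MLCs replicate 6, a setting chosen after seeing the data, the rise in ER-Hoxb8 MLCs was 1.09 (adjusted p = 0.015). The call for BMD MLCs was also lost without BMD MLCs replicate 1 (1.85, adjusted p = 0.0522) or 3 (1.98, adjusted p = 0.0367), and that for ER-Hoxb8 MLCs without replicate 6 (1.52, adjusted p = 0.0299). Clec4d was -1.08, -0.42 and 0.79 in microglia, and higher in BMD MLCs by 2.55 ± 0.89 (adjusted p = 0.0431). It was called in 4 of 15 fits that each left out 1 library, with 2.28 to 3.25 and adjusted p of 0.00847 to 0.1. In ER-Hoxb8 MLCs Clec4d differed by 1.81 ± 0.89 (adjusted p = 0.124), and without replicate 2, at the lowest value, by 2.85 (adjusted p = 0.00329). With WTHox only it was 3.89 (adjusted p = 0.000578) and called, and with GFPHox only -0.28 (adjusted p = 0.854). For BMD MLCs an offset of 1 took Clec4a1 (1.94) and Clec4d (1.85) under the fold limit. Clec4a2 was 6.80, 7.18 and 7.83 in microglia and Clec4a3 6.35, 6.72 and 7.56, and neither was called, with differences of 0.76 and 0.22 for BMD MLCs and -0.40 and 0.35 for ER-Hoxb8 MLCs. The -0.40 of Clec4a2 combines -1.60 with GFPHox only (adjusted p = 0.000172) and 0.80 with WTHox only (adjusted p = 0.013), both under the fold limit. The median log2 fold change of the members was 2.80 and 2.72, against 0.06 and -0.10 over all genes.

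Markers of neutrophils were called higher in BMD MLCs (8 of 8) and not in ER-Hoxb8 MLCs (0 of 8), and monocyte markers in both (5 of 5 and 4 of 5). Still, the summed neutrophil markers of ER-Hoxb8 MLCs replicates 4 and 5 (14.43 and 15.50) lay above every microglia library (at most 12.73). With the 7 MLC libraries left out whose neutrophil markers exceeded those of every microglia library, a setting chosen after seeing the data, 1 BMD MLC library remained, assumed to vary like the other groups. Clec12a (4.84, adjusted p = 0.0142) and Clec4n (5.04, adjusted p = 0.0124) were then still called for BMD MLCs, Clec7a (5.23, adjusted p = 0.124) and Clec4e (1.68, adjusted p = 0.717) were not, and Clec4d had the opposite sign (-0.95, adjusted p = 0.905). The library left is BMD MLCs replicate 2, whose Clec4d (-1.17) lies far below the rest of its group, so this setting does not bear on Clec4d. For ER-Hoxb8 MLCs, with 4 libraries left, Clec12a (4.33), Clec4n (5.99), Clec4e (3.73), Clec7a (3.28) and Clec4a1 (2.46) were called.

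**Figure D2:**
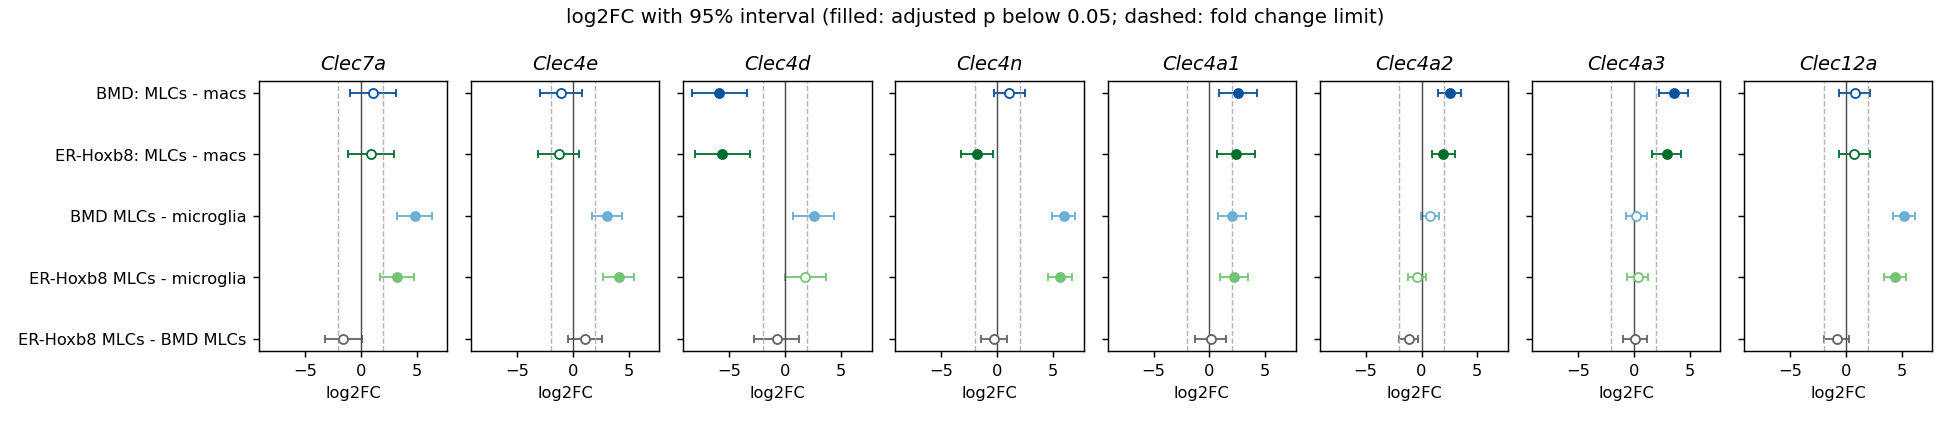
Log2 fold change of each member in 5 comparisons of MLCs, macrophages and microglia, with 95% confidence intervals, filled points where the adjusted p is below 0.05 and dashed lines at the fold limit of 2. Clec12a lies at 5.21 and 4.40 in the comparisons with microglia, and Clec4d at -5.88 and -5.62 in those with macrophages.

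The genes of Clec7a-high microglia were in part higher in MLCs than in microglia, 3 of 8 in BMD MLCs (Axl 6.49, Spp1 2.94, Igf1 2.20) and 4 of 8 in ER-Hoxb8 MLCs (Axl 5.98, Spp1 4.69, Cst7 3.58, Itgax 3.11). Of 15 other lectin receptors 9 were higher and 2 lower in BMD MLCs, led by Mrc1 (5.85), Mrc2 (-4.32), Cd209f (-3.91) and Ly75 (3.83). In ER-Hoxb8 MLCs 7 were higher and 3 lower, led by Cd69 (8.68), Clec2d (3.20) and Cd209f (-3.69), with Mrc2 lower too. Of the 12 adaptors and kinases only Vav3 (4.66 and 4.08) and Src (-3.45 and -3.80) were called in the 2 comparisons, so Fcer1g, Syk and Card9 were not. Among the 5 ligand genes, Anxa5 (3.12 and 3.69) and Vim (2.78 and 4.41) were higher in both, and Anxa1 (3.39) in BMD MLCs.

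ER-Hoxb8 MLCs and BMD MLCs did not differ by the call: limma called 0 of 8 members, where 6.56% of all genes were called, with 3623 at an unadjusted p under 0.05. Clec4a2 was lower in ER-Hoxb8 MLCs by -1.16 ± 0.41 (adjusted p = 0.0546) and Clec7a by -1.57 ± 0.81 (adjusted p = 0.203). Without the libraries labelled microglia replicate 8 and ER-Hoxb8 MLCs replicate 6, Clec7a was called at -2.15 (adjusted p = 0.00714). The 2 series of ER-Hoxb8 MLCs differed in level, so each was also compared alone. Summed neutrophil markers moved with the series, at 9.78, 8.16 and 8.62 in GFPHox and 14.43, 15.50 and 12.09 in WTHox. With GFPHox only, Clec4a2 (-2.36, adjusted p = 1.18e-05) and Clec4d (-2.83, adjusted p = 0.0426) were lower than in BMD MLCs, and with WTHox only, Clec4e was higher (2.59, adjusted p = 0.0209). Against microglia, Clec12a (3.81 and 4.98), Clec4e (2.58 and 5.63) and Clec4n (5.74 and 5.53) were called with GFPHox and with WTHox alike. Clec7a was called with WTHox (4.18) and not with GFPHox (2.32, adjusted p = 0.0547), and so was Clec4a1 (2.89 and 1.47, adjusted p = 0.11 for the latter). Interferon-stimulated genes were higher in ER-Hoxb8 than in BMD MLCs in 8 of 10 cases, with a median of 3.66.

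Over the 5 groups of this set, microglia were the lowest for Clec12a (3.61 ± 1.24), Clec4e (1.80 ± 0.96), Clec4n (1.69 ± 1.34) and Clec7a (2.50 ± 1.76), each beyond the spread from the next group. They were also the lowest for Clec4d (-0.22 ± 0.80), though within the spread of ER-Hoxb8 MLCs. For Clec12a, Clec4e and Clec7a no other neighbours in the order differed beyond their spread. Clec4n was highest in ER-Hoxb8 macrophages (9.12 ± 0.89), beyond the spread from BMD MLCs (7.63 ± 0.66). For Clec4a3 the brain groups lay together (7.19 ± 1.48, 7.06 ± 0.40 and 6.84 ± 0.40) above both kinds of macrophage (4.24 ± 0.55 and 3.49 ± 1.67). For Clec4a2 BMD MLCs were highest (8.05 ± 0.45), beyond the spread from microglia (7.29 ± 0.33). Clec4a1 was highest in the 2 kinds of MLC (6.22 ± 1.61 and 6.09 ± 0.61), beyond the spread from microglia (4.04 ± 1.43), which did not differ from macrophages.

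Genes whose levels were most like each member over these 27 libraries are given as a description, by Pearson r. Clec12a was most like Arhgap15 (0.940), Cybb (0.936) and Tlr8 (0.921), and Clec4n most like Aoah (0.956), Trps1 (0.940) and Apobec1 (0.934). Clec4d went with Ldlrad3 (0.919), Emp1 (0.906) and Lgals3 (0.894), and Clec4e with Ifitm2 (0.919), Ifitm3 (0.905) and Napsa (0.905). Clec7a went with Cd97 (0.906), Nin (0.895) and Tlr8 (0.894), Clec4a1 with Ddx60 (0.871), Ccr2 (0.859) and Batf (0.847), and Clec4a2 with Serpinb10 (0.923), Rhou (0.912) and Lin28a (0.909). Clec4a3 went with Pde5a (0.895), Gm11346 (0.880) and Gm16588 (0.877).

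Adar edits double-stranded RNA, and without it macrophages can sense their own RNA and make interferon. Adar itself was 4.36, 4.23 and 4.24 in sgRNA 1 progenitors and 4.20, 3.42 and 4.28 in NTC progenitors. It was 6.96, 7.15 and 7.01 in sgRNA 1 macrophages, above the 5.73, 5.86 and 5.67 of NTC macrophages, where the middle value is the library normalized on its own. For sgRNA 2 it was 4.35, 4.56 and 4.36 in progenitors and 6.99 to 7.03 in macrophages. Guides of this kind make small insertions and deletions, and the level of the whole transcript does not check the knockout.

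Differentiation of NTC progenitors into macrophages brought up nearly the whole family. Of 8 members 7 rose, where 23.5% of all genes were called, and the median log2 fold change was 4.22 against -0.08 over all genes. Clec4a1 rose the most, from -1.89, -1.56 and -1.32 to 5.65 and 5.47 (7.15 ± 0.47, adjusted p = 9.78e-08). Clec4a3 (5.28 ± 0.34), Clec4n (5.12 ± 0.59), Clec4d (4.53 ± 0.15), Clec4a2 (3.90 ± 0.19), Clec7a (2.99 ± 0.38) and Clec12a (2.49 ± 0.14) rose too. Clec4e was the exception, at 7.20, 7.34 and 6.84 in progenitors and 7.56 and 7.45 in macrophages (0.38 ± 0.20, adjusted p = 0.113). Fcer1g (2.94) and Syk (2.50) rose with them.

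In the Adar1 KO lines the same step raised 8 of 8 members with sgRNA 1, where 21.6% of all genes were called, and 7 of 8 with sgRNA 2, where 19.3% were. The medians were 3.64 and 2.75, against -0.06 and -0.03 over all genes. With sgRNA 2, Clec4a1 and Clec4a2 fell under the fold limit with an offset of 1, and Clec4a1 also with quantile normalization. Clec4e rose here: from 6.81, 6.96 and 6.69 to 9.70, 9.69 and 9.03 with sgRNA 1 (2.66 ± 0.18, adjusted p = 1.2e-07). With sgRNA 2 it went from 6.98, 7.04 and 6.81 to between 9.59 and 9.64 in 5 libraries (2.68 ± 0.05, adjusted p = 1.22e-11). Clec4n rose by 7.25 ± 0.53 and 5.20 ± 0.06, Clec4d by 5.19 ± 0.13 and 3.31 ± 0.07, and Clec12a by 2.58 ± 0.12 and 5.01 ± 0.12. Clec4a3, at 3.87 ± 0.30 with sgRNA 1, reached 1.45 ± 0.18 with sgRNA 2 (adjusted p = 2.61e-05), under the fold limit. Summed progenitor markers were 13.76 to 14.28 in sgRNA 1 progenitors and 2.62 to 3.75 in sgRNA 1 macrophages, and macrophage markers 7.75 to 7.85 against 12.43 to 12.61. With sgRNA 2 the progenitor markers were 11.70 to 11.93 against 3.08 to 3.34, and the macrophage markers 8.48 to 8.51 against 12.19 to 12.29. The 2 guides were normalized apart, so their levels are not compared.

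Before differentiation no receptor passed the test between knockout and control. Between sgRNA 1 and NTC progenitors limma called 0 of 8 members and 0.254% of all genes, with 725 at an unadjusted p under 0.05. The differences ran from -0.64 (Clec4n, adjusted p = 0.972) to 0.38 (Clec4a1, adjusted p = 0.99).

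In macrophages the knockout was compared with NTC, to see which receptors go with the interferon state. Mincle was higher and Clec4a1 lower, in a background where all 10 interferon-stimulated genes rose (median 5.90). Of 8 members 0 were called higher and 1 lower, where 4.02% of all genes were called. Summed markers of other cell types moved as well. Neutrophil markers were 6.25 to 6.43 in sgRNA 1 against 4.04 and 4.39 in NTC macrophages (mostly S100a8) and endothelial markers 6.69 to 7.16 against 5.26 and 5.62 (mostly Flt1). Macrophage markers were 12.43 to 12.61 against 13.03 and 13.21, and border macrophage markers 5.93 to 6.52 against 9.30 and 9.59 (nearly all Mrc1). Clec4a1 was 5.65 and 5.47 in NTC and 4.22, 2.93 and 2.89 in sgRNA 1 macrophages, with no overlap (-2.21 ± 0.47, CI -3.25 to -1.18, adjusted p = 0.00639). The call was lost without sgRNA 1 macrophages replicate 3 (-1.98, adjusted p = 0.0234) or NTC macrophages replicate 1 (-2.12, adjusted p = 0.0533). Clec4e was 7.56 and 7.45 in NTC and 9.70, 9.69 and 9.03 in sgRNA 1 macrophages. Every knockout library was above every control, by 1.97 ± 0.20 (CI 1.52 to 2.42, adjusted p = 3.77e-05), just under the fold limit. It passed the limit without sgRNA 1 macrophages replicate 3 (2.19, adjusted p = 7.36e-06) or NTC macrophages replicate 1 (2.02, adjusted p = 0.000493). In the fits with 1 NTC library, that lone sample is assumed to vary like the other groups.

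Clec4n was 9.34 and 9.00 in NTC and 11.42, 10.42 and 10.13 in sgRNA 1 macrophages (1.49 ± 0.59, adjusted p = 0.0972). Clec4a3 was 5.95 and 5.69 against 5.42, 4.20 and 4.21 (-1.21 ± 0.34, adjusted p = 0.0254, under the fold limit). In both genes sgRNA 1 replicate 1 was the highest of its group. The other 4 members had differences of -0.64 (Clec7a) to 0.39 (Clec4d) and adjusted p of 0.0822 to 0.258. NTC macrophages replicate 2, outside these tests, had Clec4a1 at 5.60, Clec4e at 7.62 and Clec4n at 8.94. With it in the fit the call of Clec4a1 was kept (-2.22, adjusted p = 0.00118), and Clec4e was 1.93. Clec4n (1.56, adjusted p = 0.0345), Clec4d (0.41, adjusted p = 0.0298) and Clec12a (0.34, adjusted p = 0.049) then passed the adjusted p, under the fold limit. The median of the members was -0.03, against 0.05 over all genes. Cd69 rose (3.87) and the mannose receptor Mrc1 fell (-3.20), 2 of 9 other lectin receptors, and of the Clec7a-high genes Spp1 (2.60), Cst7 (2.19) and Itgax (2.11) rose.

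The difference between sgRNA 1 and NTC cells, here called the effect of the knockout, may include a difference between lines. It differed between macrophages and progenitors in 3 of 8 members at an adjusted p below 0.05, where 13.6% of all genes were called. The difference was 2.27 ± 0.27 for Clec4e (adjusted p = 0.00021), -2.60 ± 0.63 for Clec4a1 (adjusted p = 0.0194) and 0.66 ± 0.20 for Clec4d (adjusted p = 0.049). Clec4e was called without each of the 11 libraries in turn (2.16 to 2.49). Clec4d was called in 2 of those 11 fits (0.49 to 0.83, adjusted p 0.0344 to 0.174). Clec4a1 was lost without sgRNA 1 progenitors replicate 3 (-2.44, adjusted p = 0.0505), sgRNA 1 macrophages replicate 2 (-2.39, adjusted p = 0.0529) or NTC macrophages replicate 1 (-2.51, adjusted p = 0.0726). Without sgRNA 1 macrophages replicate 1, Clec4a3 was called as well (-1.82, adjusted p = 0.00277), as it was with NTC macrophages replicate 2 in the fit (-1.37, adjusted p = 0.0352). With replicate number as a block, Clec4n was called (2.30, adjusted p = 0.0109) and Clec4d was not (0.60, adjusted p = 0.0506).

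**Figure D3:**
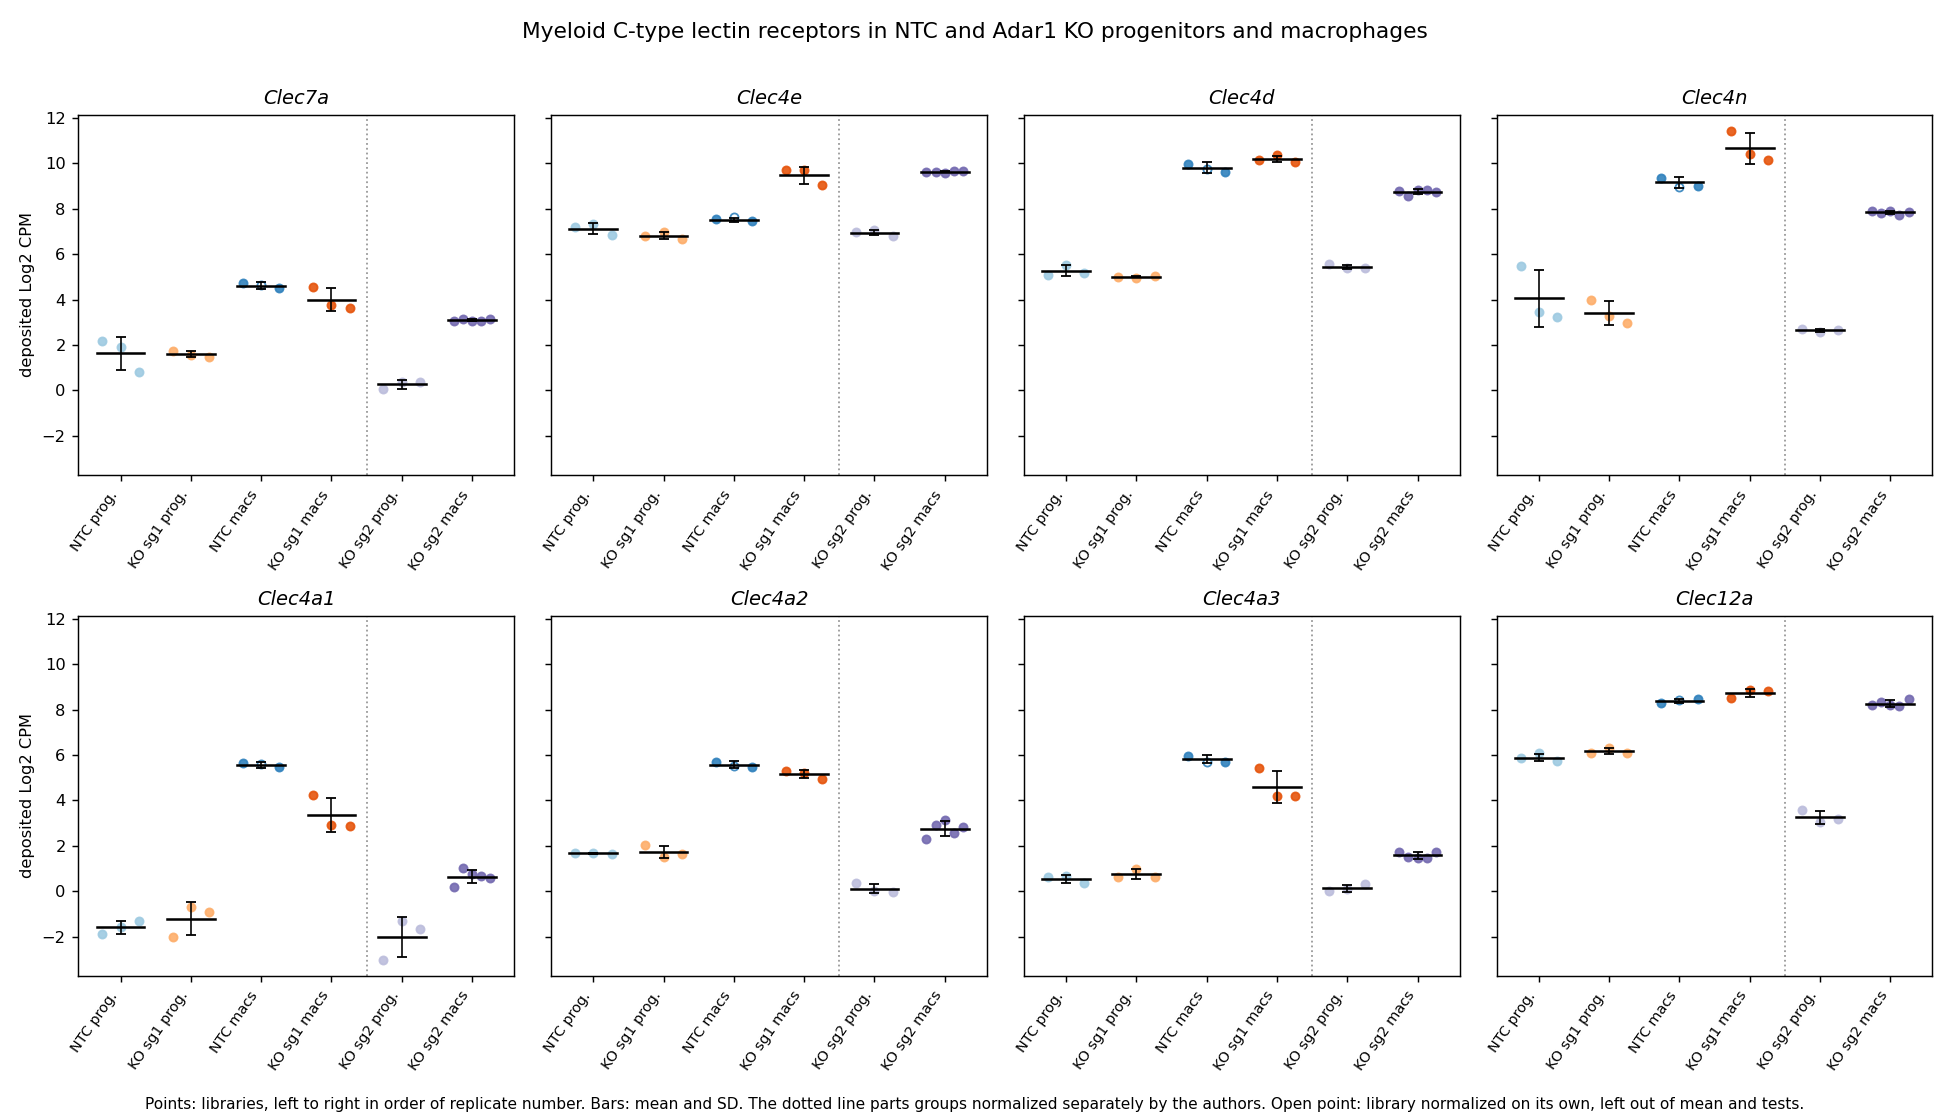
Log2 CPM of the 8 members in NTC and Adar1 KO progenitors and macrophages, with bars for the mean and SD, a dotted line before the separately normalized sgRNA 2 groups and an open point for the NTC macrophage library normalized on its own. Clec4e in macrophages lies at 9.03 to 9.70 with sgRNA 1 and at 7.45 to 7.62 with NTC.

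Across these 4 groups of sgRNA 1 and NTC, the means of macrophages were above those of progenitors for all 8 members, beyond the spread. For Clec4e the gap between NTC macrophages and NTC progenitors was 0.38 with a larger SD of 0.26, and limma did not call it (adjusted p = 0.113). Among macrophages the mean of the knockout was higher for Clec4e (9.47 ± 0.38 against 7.51 ± 0.08), Clec4n (10.66 ± 0.68 against 9.17 ± 0.24), Clec4d (10.19 ± 0.15 against 9.80 ± 0.24) and Clec12a (8.74 ± 0.19 against 8.38 ± 0.11). It was lower for Clec4a1 (3.35 ± 0.76 against 5.56 ± 0.13), Clec4a3 (4.61 ± 0.70 against 5.82 ± 0.19), Clec4a2 (5.16 ± 0.19 against 5.58 ± 0.16) and Clec7a (3.98 ± 0.51 against 4.62 ± 0.15). These 8 gaps each exceed the larger SD, a weaker rule than the test. By limma only Clec4a1, Clec4a3 and Clec4e had an adjusted p below 0.05 between knockout and NTC macrophages. The share of all genes with such gaps was not computed. Among progenitors the gaps of Clec4a1, Clec4a2, Clec4a3, Clec4n and Clec7a lay within the larger SD and those of Clec12a, Clec4d and Clec4e beyond it.

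In the baricitinib series the same guide was compared with NTC at 5 doses, to ask which changes a JAK inhibitor removes. Clec4n was far higher in Adar1 KO macrophages at all 5 doses, Clec7a at the 3 middle doses by the call, and Clec4d, higher in the KO without drug, lay beside NTC at the highest dose. Interferon-stimulated genes rose in 10 of 10 cases at 0 uM (median 5.63) and in 0 of 10 at 10 uM (median 0.25). Adar was 7.42, 6.52 and 6.37 in KO and 5.12, 4.94 and 4.69 in NTC macrophages at 0 uM, and 1.55 to 2.91 against 3.22 to 3.70 at 10 uM.

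Without drug, 1 of 8 members was called higher, where 3.87% of all genes were called. Clec4n was 8.27, 7.97 and 8.35 in NTC and 11.17, 11.08 and 11.29 in KO macrophages. The 2 groups were tight and far apart, by 2.98 ± 0.22 (CI 2.53 to 3.44, adjusted p = 7.12e-11). Clec7a was 3.19, 3.47 and 3.11 against 4.32, 4.94 and 5.14 (1.54 ± 0.25, adjusted p = 4.42e-05), and Clec4d 8.71, 8.73 and 8.89 against 10.62, 9.73 and 9.60 (1.20 ± 0.22, adjusted p = 0.000156). Neither pair overlapped, though both lay under the fold limit. Clec4a3 was higher by 1.06 ± 0.29 (adjusted p = 0.00757), and the inhibitory Clec4a2 and Clec12a were lower, by -1.20 ± 0.17 (adjusted p = 6.3e-06) and -1.11 ± 0.21 (adjusted p = 0.000284). Clec4e differed by 0.16 (adjusted p = 0.69) and Clec4a1 by -0.52 (adjusted p = 0.314). The median of the members was 0.61, against -0.02 over all genes. Of 10 other lectin receptors 2 rose and 2 fell: Clec4b1 (-4.49), Cd69 (2.78), Cd207 (-2.30) and Clec2d (2.23).

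At 0.0006 uM 2 of 8 members were called, where 5.00% of all genes were, and at 0.016 uM 2 of 8, where 5.12% were. Clec4n was 7.94, 7.44 and 7.69 against 11.34, 11.43 and 11.41 at 0.0006 uM (3.70 ± 0.22, adjusted p = 9.89e-13). At 0.016 uM it was 7.42 to 7.68 in 4 NTC libraries against 11.48, 11.79 and 11.41 (3.99 ± 0.21, adjusted p = 3.84e-14). Clec7a was 2.93, 3.47 and 3.28 against 4.98, 5.95 and 5.31 at 0.0006 uM, a rise of 2.19 ± 0.25 (adjusted p = 1.88e-07) that came to 1.92 (adjusted p = 4.96e-06) without KO replicate 2. At 0.016 uM it was 3.22 to 3.61 against 6.19, 6.17 and 5.14 (2.36 ± 0.24, adjusted p = 1.46e-08). Clec4d (1.47 and 1.26), Clec4a3 (1.79 and 1.24) and Clec4a2 (-0.79 and -0.79) had adjusted p below 0.05 at both doses, under the fold limit.

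At 0.4 uM 2 of 8 members were called, where 1.78% of all genes were, and at 10 uM 1 of 8, where 3.14% were. Clec4n was 7.29 to 7.69 in 4 NTC libraries at 0.4 uM and 10.28, 11.05 and 10.37 in the KO (3.16 ± 0.21, adjusted p = 1.96e-11). It was above NTC in KO replicates 1 and 3, where the summed interferon-stimulated genes were 3.40 and 5.85, as well as in replicate 2, where they were 14.11. Leaving out any library at this dose gave 2.92 to 3.30, always called. At 10 uM Clec4n was 8.02, 7.58 and 8.39 against 10.19 to 11.39 in 4 KO libraries (2.76 ± 0.21, CI 2.34 to 3.19, adjusted p = 5.06e-11). Those KO libraries had summed interferon-stimulated genes of 3.10 to 3.48, beside 2.64 to 3.07 in NTC.

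Clec7a at 0.4 uM was 2.71 to 2.78 in NTC and 4.76, 5.00 and 4.65 in the KO (2.05 ± 0.24, adjusted p = 8.74e-07), and 1.95 (adjusted p = 1.43e-05) without KO replicate 2. At 10 uM it was 1.94, 2.65 and 2.34 against 3.50 to 4.01 (1.41 ± 0.24, adjusted p = 1.97e-05), under the fold limit and with no overlap. Clec4e at 0.4 uM was 8.24 to 8.56 against 8.74, 10.63 and 8.74 (1.02, adjusted p = 0.00566), the high value being KO replicate 2, the library that stands apart. In all, 199 genes were called at this dose, 110 without that library and 329 without KO replicate 1. Clec4d differed by 0.40 (adjusted p = 0.204) at 0.4 uM and -0.28 (adjusted p = 0.275) at 10 uM. Clec4a3 was still higher in the KO at 10 uM (1.20 ± 0.27, adjusted p = 0.000673), under the fold limit.

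**Figure D4:**
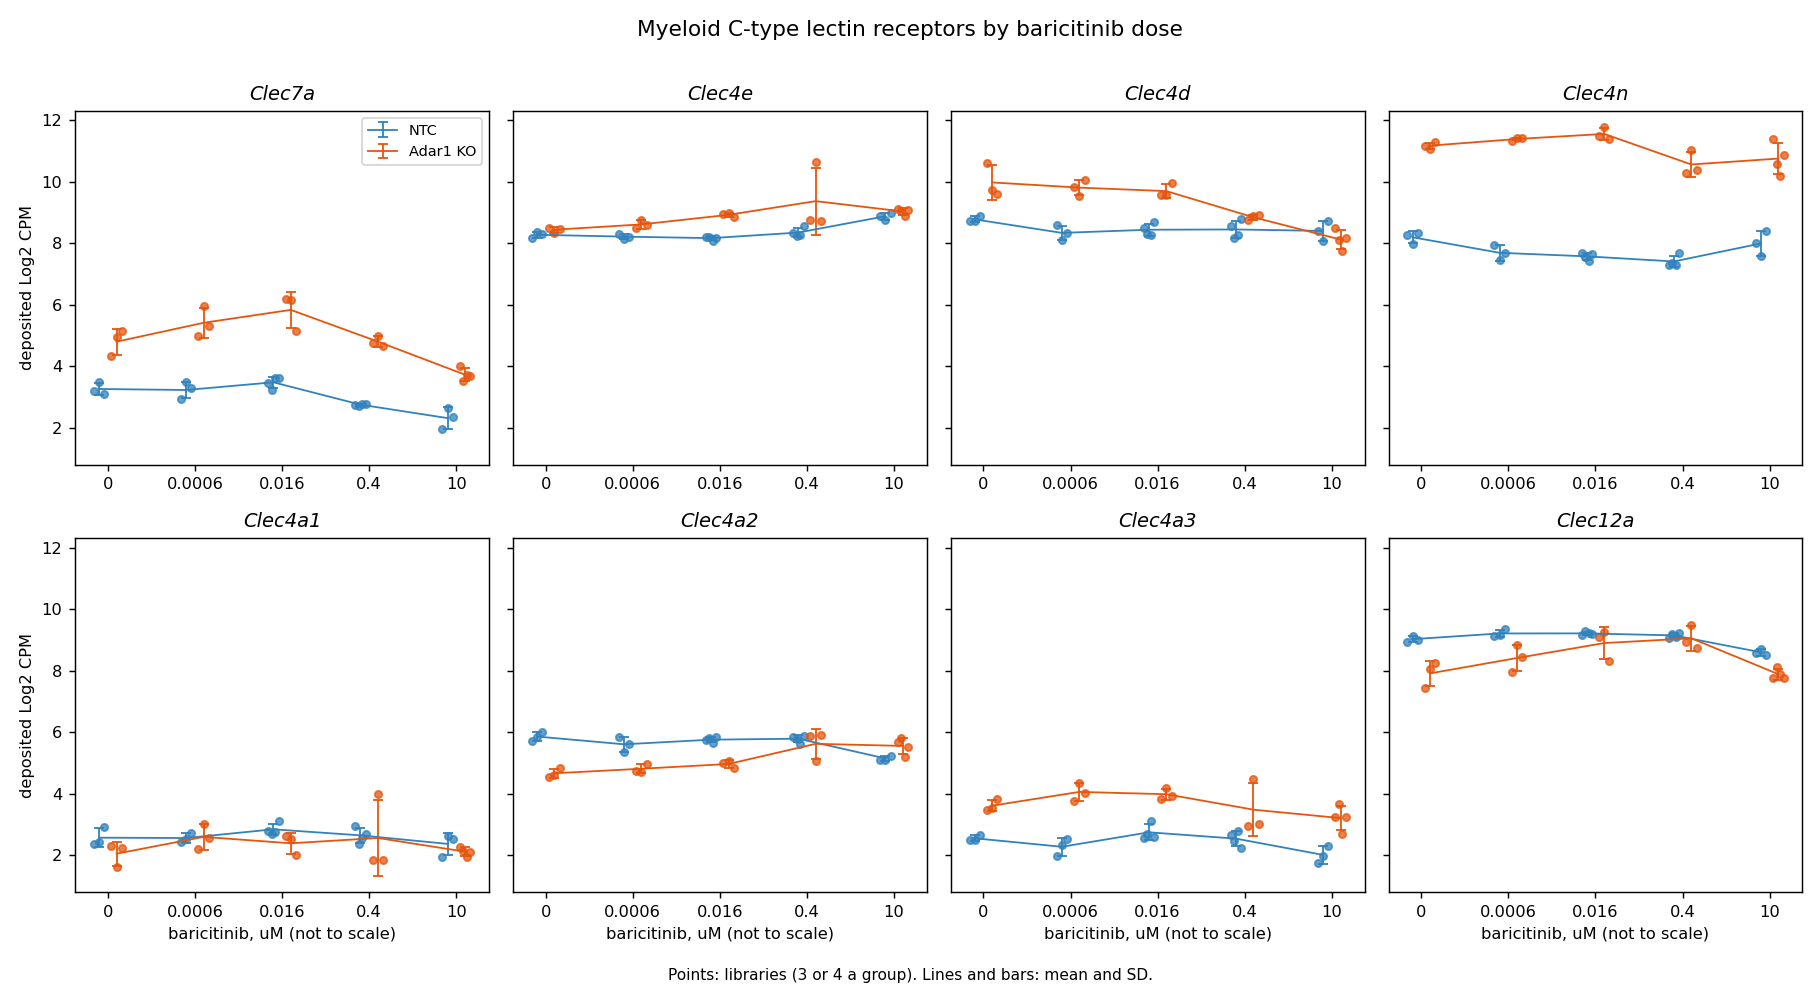
Log2 CPM of the 8 members by dose of baricitinib (uM, not to scale) in NTC (blue) and Adar1 KO (orange) macrophages, with points for libraries and bars for the mean and SD. Clec4n of the KO lies at 10.19 to 11.79 over all doses and that of NTC at 7.29 to 8.39, and Clec4d of the KO has means of 9.98 at 0 uM and 8.12 at 10 uM.

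Within each genotype, 10 uM was compared with 0 uM. limma called 0 of 8 members in NTC, where 0.834% of all genes were called (3169 at an unadjusted p under 0.05), and 0 of 8 in the KO, where 14.7% were (7660 at an unadjusted p under 0.05). In the KO Clec4d went from 10.62, 9.73 and 9.60 to between 7.74 and 8.49, -1.86 ± 0.20 (CI -2.28 to -1.44, adjusted p = 8.28e-09), under the fold limit, and without KO 0 uM replicate 3 it was called at -2.05 (adjusted p = 1.16e-08). Clec7a differed by -1.07 (adjusted p = 0.000253) in the KO and -0.95 (adjusted p = 0.0132) in NTC. Clec4a2, the inhibitory receptor, was higher by 0.89 in the KO (adjusted p = 1.95e-05), from 4.54 to 4.84 without drug to 5.21 to 5.80 with it, and differed by -0.71 in NTC (adjusted p = 0.00635). Clec4n differed by -0.42 in the KO (adjusted p = 0.0773). Interferon-stimulated genes fell in 9 of 10 cases in the KO (median -8.22), with Card9 (-2.32) and Syk (-2.22), an adaptor and a kinase downstream of the activating receptors.

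The effect of 10 uM differed between KO and NTC in 2 of 8 members at an adjusted p below 0.05, where 39.5% of all genes were called. Clec4a2 had 1.60 ± 0.23 (adjusted p = 5.88e-06) and Clec4d -1.48 ± 0.30 (adjusted p = 0.000323), and both were called without each of the 13 libraries in turn. The inhibitory phosphatases differed as well, with Ptpn6 at -0.98, Inpp5d at -0.94 and Ptpn11 at -0.59, and so did Card9 (-2.02), Syk (-1.51) and Plcg2 (-1.41). Of 10 other lectin receptors the difference was positive in 7 and negative in 1, led by Clec4b1 (3.02), Cd207 (2.77), Clec2d (-2.23) and Mgl2 (2.06).

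In the order of the 10 groups, the 5 KO groups held the top 5 places for Clec4n (10.57 ± 0.42 to 11.56 ± 0.21), beyond the spread from the highest NTC group (8.20 ± 0.20). The same held for Clec7a (3.72 ± 0.21 to 5.83 ± 0.60, with NTC from 3.48 ± 0.18 down) and Clec4a3 (3.20 ± 0.40 to 4.06 ± 0.29, with NTC from 2.74 ± 0.26 down). For Clec4d the KO at 0, 0.0006 and 0.016 uM was highest (9.98 ± 0.56, 9.81 ± 0.26 and 9.70 ± 0.23), beyond the spread from the KO at 0.4 uM (8.85 ± 0.09), and the KO at 10 uM was last (8.12 ± 0.31). For Clec4e the KO at 0.4 uM was first (9.37 ± 1.09), which rests on KO replicate 2 (10.63), the library that stands apart. Its other 2 libraries, both at 8.74, lie below the means of the KO at 10 and 0.016 uM (9.04 and 8.93) and of NTC at 10 uM (8.88), and the 4 lower NTC doses were last, each within the spread of its neighbour. For Clec4a2 the KO at 0 uM was last (4.66 ± 0.15) and NTC at 0 uM first (5.86 ± 0.15). Clec12a ran from 9.22 ± 0.05 (NTC, 0.016 uM) to 7.89 ± 0.17 (KO, 10 uM). No neighbours in the order of Clec4a1, from 2.84 ± 0.19 to 2.05 ± 0.39, differed beyond their spread.

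**Figure D5:**
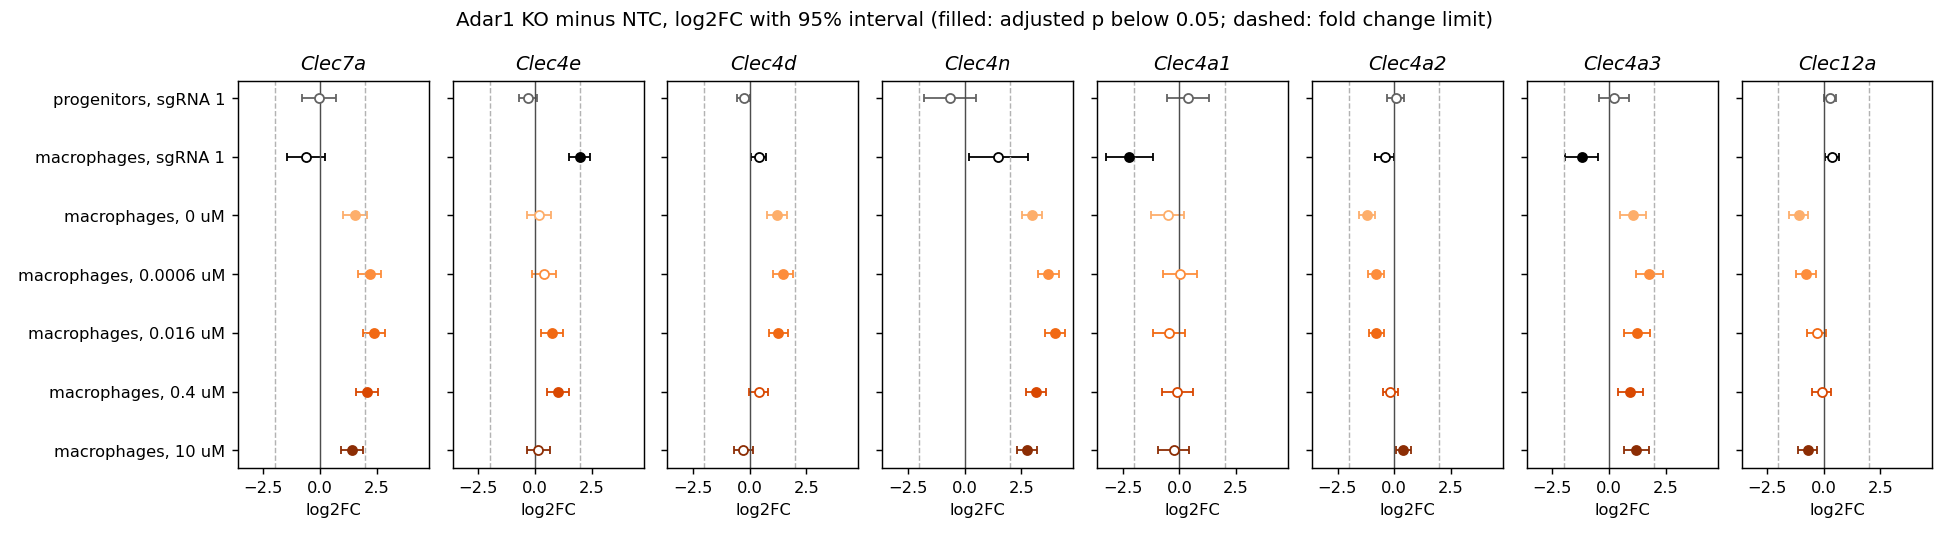
Log2 fold change of each member between Adar1 KO and NTC cells, in progenitors, in macrophages of the first series and at 5 doses of baricitinib, with 95% confidence intervals, filled points where the adjusted p is below 0.05 and dashed lines at the fold limit of 2. Clec4n lies between 2.76 and 3.99 at the 5 doses, and Clec4e at 1.97 in the first series and at 0.16 at 0 uM.

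Over the 33 libraries of this series, the genes most like Clec4n were Cd164 (r = 0.972), Atp1b2 (0.966) and Cd86 (0.964), and those most like Clec7a were Gm2a (0.935), Ensa (0.932) and Slc50a1 (0.923). Clec4d was most like Atp6v1e1 (0.947), Tcn2 (0.940) and Cd300a (0.937), Clec4a3 like Fis1 (0.927), Gbp9 (0.921) and Fam46a (0.918), and Clec12a like Ccr2 (0.929), C3ar1 (0.915) and Lpxn (0.909). Clec4e was most like Sepw1 (0.918), Ctla2b (0.917) and Lrrfip1 (0.909), Clec4a2 like Ambp (0.893), Fcrl1 (0.877) and Fcna (0.876), and Clec4a1 like Herc1 (0.791), Lpxn (0.763) and C3ar1 (0.717).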

How the data were processed

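The deposited table holds log2 CPM that the authors had made: they trimmed reads with fastp, checked them with FastQC and MultiQC, pseudoaligned them with Kallisto 0.46.0 to GRCm39 cDNA (Ensembl 99), summed them to genes with tximport from TPM, and normalized them by the TMM method of edgeR. They also list limma, and the versions of fastp, FastQC, MultiQC, edgeR and limma are not stated. Of its 29957 lines 1 has no gene name, and 29956 genes in 92 columns were used, with 0 columns unused. The columns form 6 sets, each with its own lowest value. A set was fitted by itself and 91 columns entered a fit, all but NTC macrophages replicate 2.

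Values were used as deposited with limma 3.58.1 (linear model, empirical Bayes with trend) in R 4.3.3, Benjamini-Hochberg over all genes tested. Tables and figures used Python 3.11.15, numpy 2.4.6, pandas 2.3.3 and matplotlib 3.10.9. A gene was tested if 3 or more libraries exceeded 1 CPM (6 or more in the fit with brain cells). Calls needed an adjusted p below 0.05 with a fold change of 2 or more on the log2 scale, and differences between effects only the former. Depth and the lowest values assume that a count of 2 had been added before the log, which is not stated. Replicate numbers were taken as pairs where every r was above 0.1 over at least 3 pairs, which held for ER-Hoxb8 day 4 cells with ER-Hoxb8 progenitors (0.226 to 0.427) and sgRNA 1 with NTC progenitors (0.158 to 0.349). In sgRNA 1 with NTC macrophages only 2 pairs were present (0.153 and 0.158). Blocking left the first 2 at 0 called members.

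The members and lists were chosen with earlier results of these data known. Other genes were named by rule: up to 4 called genes of a list by size of log2 fold change, and the 3 genes most like a member by Pearson r. The authors call the libraries of bone marrow, ER-Hoxb8 and brain cells biological replicates, and those of the baricitinib series independently differentiated cultures. Depth sets a floor on counting error alone. Of the 31-mers of a transcript, 15.4% of Adar and 10.9% of Clec4a2 occur in other genes, and at most 2.19% for the other members.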

Additional observations from a re-analysis of the deposited data

Results flagged for a closer look

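Of 56 pairs of member and group put to Dixon's test for a single outlying library, 8 were found, where chance gives about 1 in 20. Clec4d was low in BMD MLCs replicate 2 (-1.17), and Clec4a1 (9.50) and Clec4a3 (9.94) were high in ER-Hoxb8 MLCs replicate 6. In microglia replicate 8 Clec4a1 (0.59) and Clec7a (-1.85) were low. The others were small shifts in tight groups: Clec4d in sgRNA 2 macrophages replicate 2 (8.55), Clec4e in NTC macrophages 0.016 uM replicate 3 (8.08) and Clec4n in NTC macrophages 0.4 uM replicate 4 (7.69). The cause was not tested.

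The effect of the knockout (sgRNA 1) differed between macrophages and progenitors for Clec4a1 (-2.60), Clec4d (0.66) and Clec4e (2.27), 3 of 8 members where 13.6% of all genes were called; of 11 fits that each left out 1 library, Clec4e was called in 11, Clec4a1 in 8 and Clec4d in 2, and without the filter Clec4a1 (adjusted p = 0.0546) and Clec4d (0.0988) were lost, Clec4d also with the replicate block (0.0506) and quantile normalization (0.103). The effect of 10 uM baricitinib differed between Adar1 KO and NTC macrophages for Clec4a2 (1.60) and Clec4d (-1.48), 2 of 8 members where 39.5% of all genes were called. Whether the members differ in this from genes at large was not tested.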

How the results depend on the processing

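Counts of called members moved with the settings. Over 97 fits that each left out 1 library, of 732 fold changes whose adjusted p was below 0.05 with all libraries, 663 kept their sign and that p, 69 kept the sign alone and 0 reversed. Fold changes without that p can change sign: with one series for the other, Clec4e in ER-Hoxb8 MLCs against macrophages (-2.79 and 0.26) and Clec4d (-0.28 and 3.89) and Clec4a2 (-1.60 and 0.80) against microglia. Sets of 2 or 3 libraries decide many calls near a limit. In fits with 1 NTC macrophage or 1 BMD MLC library, that sample is assumed to vary like other groups. Settings on libraries that stand apart or have high neutrophil markers were chosen after seeing the data.

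With an offset of 1, called members were 4 instead of 2 in BM monocytes against BM progenitors, 1 instead of 0 in the effect of the brain between sources (Clec4n) and 1 instead of 2 at 0.4 uM (Clec7a 1.92). It took Clec4a1 (1.94) and Clec4d (1.85) in BMD MLCs against microglia and Clec4a1 (1.07) and Clec4a2 (1.94) in sgRNA 2 macrophages against progenitors under the fold limit, and added Clec4a1 in day 4 cells against monocytes (-4.26). All genes called fell to 911 from 1409 (day 4 cells against monocytes), 842 from 1338 (BMD MLCs against microglia), 1266 from 2040 (ER-Hoxb8 MLCs against microglia), 447 from 821 (ER-Hoxb8 against BMD MLCs), 282 from 442 (sgRNA 1 against NTC macrophages), 13 from 28 (sgRNA 1 against NTC progenitors), and by dose to 250, 334, 348, 118 and 152 from 432, 558, 571, 199 and 350. With quantile normalization the monocytes had 5 called members, and 1294 genes instead of 825. It ended Clec4a1 against microglia for both MLCs (1.99 and 1.99), Clec4a1 in sgRNA 2 (1.79) and Clec4d between knockout effects (0.48), and added Clec12a in ER-Hoxb8 against BM progenitors (adjusted p = 0.0494), Clec4a1 in day 4 cells against monocytes (-4.41), Clec4a2 in ER-Hoxb8 MLCs against macrophages (2.10) and Clec4a3 between knockout effects (-1.57). Without the filter the effect of the knockout between macrophages and progenitors kept 1 of 3 calls (Clec4a1, adjusted p = 0.0546, and Clec4d, 0.0988, lost), and Clec4a3 in day 4 cells against monocytes (0.0643) and Clec4d in BMD MLCs against microglia (0.0708) were lost. With a fold limit of 1, called members were 5 instead of 3 (ER-Hoxb8 MLCs against macrophages), 3 instead of 1 (sgRNA 1 against NTC macrophages), 6, 4, 4 and 3 at 0, 0.0006, 0.016 and 10 uM, and 2 instead of 0 for 10 against 0 uM in the KO.

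With replicate number as a block, the effect of the brain between sources called 1 member, Clec4n (-2.88, adjusted p = 0.0314), and ER-Hoxb8 against BMD macrophages called 0 genes instead of 158. It ended Clec4a1 (1.48, adjusted p = 0.0673) and Clec4d (2.28, adjusted p = 0.0867) in BMD MLCs against microglia, Clec4a1 in ER-Hoxb8 MLCs against microglia (1.61) and Clec4d between knockout effects (0.60, adjusted p = 0.0506). It added Clec12a in ER-Hoxb8 against BM progenitors (adjusted p = 0.0371), Clec7a in monocytes against BM progenitors (0.0243), Clec4a1 in day 4 cells against monocytes (0.0413) and Clec4n between knockout effects (2.30, adjusted p = 0.0109). Of the comparisons named here, only the progenitors within the knockout effects met the rule for pairs. In the others the replicate numbers do not pair the libraries, so calls gained or lost with the block do not show how stable a result is.

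With GFPHox libraries only, ER-Hoxb8 MLCs had 3 called members against microglia instead of 5, 2 against BMD MLCs, and the effect of the brain between sources called 1 (Clec4a2). With WTHox only, 1 was called against BMD MLCs. With the 2 libraries that stand apart left out, 1 was called against BMD MLCs and 1 between sources. With neutrophil-high MLC libraries left out, BMD MLCs had 1 called member against macrophages instead of 4 and 2 against microglia instead of 6, and Clec4d against microglia reversed (-0.95, adjusted p = 0.905), on BMD MLCs replicate 2 alone, whose Clec4d (-1.17) lies far below its group. All genes called there fell to 595 and 364.

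Leaving out 1 library, called members ranged over 3 to 4 (ER-Hoxb8 against BM progenitors), 1 to 1 (monocytes against BM progenitors), 0 to 1 (day 4 cells against ER-Hoxb8 progenitors), 2 to 5 (day 4 cells against monocytes), 3 to 4 and 2 to 4 (MLCs against macrophages, BMD and ER-Hoxb8), 4 to 6 and 4 to 6 (against microglia), 1 to 3 (knockout effect between macrophages and progenitors), 1 to 2 (0.0006 uM), 1 to 2 (0.4 uM) and 0 to 1 (10 against 0 uM in the KO). All genes called ranged over 376 to 630 in monocytes against BM progenitors, 0 to 733 in day 4 cells against progenitors, 5 to 101 in ER-Hoxb8 against BMD macrophages, 224 to 603 between sources and 110 to 329 at 0.4 uM.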

Other observations

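The 2 series with sgRNA 1 did not give the same receptors. They were normalized apart and the difference between them was not tested, so the values stand side by side. Clec4e differed between Adar1 KO and NTC macrophages by 1.97 in the first series and by 0.16 at 0 uM in the baricitinib series. For Clec4n the values were 1.49 and 2.98, for Clec7a -0.64 and 1.54, for Clec4a3 -1.21 and 1.06, and for Clec4a1 -2.21 and -0.52. Interferon-stimulated genes were higher in the KO in both, with medians of 5.90 and 5.63.

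Clec4n and the interferon genes parted in the KO under baricitinib. At 10 uM the 4 KO libraries had interferon sums of 3.10 to 3.48 and Clec4n of 10.19 to 11.39. Between 10 and 0 uM in the KO, Clec4n differed by -0.42 (adjusted p = 0.0773), while the interferon-stimulated genes had a median of -8.22. A hypothesis is that high Clec4n in these cells does not need ongoing JAK signalling, and a difference between the NTC and KO cells that came before the drug is another. With the same guide, KO progenitors of the first series differed from NTC in Clec4n by -0.64 (adjusted p = 0.972). Those progenitors belong to another series and an earlier stage, with means of 3.41 and 4.05. No progenitors were sequenced in the baricitinib series, so that value does not bear on either hypothesis. The 2 explanations can both hold, were not tested and cannot be told apart here.

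Tyrobp, the partner of several activating receptors, was at or near the lowest value of its set (up to 3 counts) in 38 of 71 libraries of macrophages, MLCs and microglia. Among them were 5 of 5 sgRNA 2 macrophages and every baricitinib library outside the KO at 10 uM, where 1 of 4 was. In contrast, 0 of 6 BMD MLCs, 0 of 6 ER-Hoxb8 MLCs and 1 of 9 microglia were among them. The transcripts of Tyrobp share 0% of their 31-mers with other genes. A transcript missing from part of the quantification is a hypothesis that was not tested, and no Tyrobp value is interpreted here.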
